A study of Homo sapiens with 24 samples.

Results

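The oxidative phosphorylation genes of both human genomes were followed through treatment of 4 cancer cell lines with EPZ015666, an inhibitor of the protein arginine methyltransferase PRMT5. Members were chosen by gene symbol alone, as the subunit families of the respiratory complexes I to IV and of the ATP synthase (complex V), with pseudogenes left out. The rule found 80 of the 16591 genes listed, 13 encoded by mitochondrial DNA and 67 by nuclear chromosomes. Complex I had 7 mitochondrial and 31 nuclear members, complex II 3 nuclear ones, complex III 1 and 8, complex IV 3 and 11, and complex V 2 and 14. Another 17 protein-coding symbols that fit the rule are not among the genes listed and had no values to analyse, NDUFV2, SDHD, COX8A and ATP5MC1 among them. For 16 of these, 50% or more of the gene span lies under another gene, against 6 of the 80 members. The symbol rule also leaves out CYC1, COX4I1 and NDUFAB1, which code for subunits too, and it takes in ATP5IF1, an inhibitor of the ATP synthase, ATP5S, named for a coupling factor, and UQCRHL, a copy of UQCRH.

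Complexes I and II pass electrons from NADH and from succinate to ubiquinone, and complexes III and IV pass them on by way of cytochrome c to oxygen. Complexes I, III and IV pump protons out of the matrix, and complex V uses the gradient to make ATP. The mitochondrial genome codes for core membrane subunits of complexes I, III, IV and V and for none of complex II, while nuclear genes code for all other subunits, which are imported. Mitochondrial DNA is transcribed into long RNAs from both strands, which are cut mostly at tRNAs. Most of the messages, but not all, are given short poly(A) tails.

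EPZ015666 at 5 µM was compared with its DMSO vehicle in BT549 and MDAMB436, which are breast cancer lines, and in OVCAR8 and COV362, which are ovarian cancer lines. BT549 and OVCAR8 had drug and vehicle groups at day 3 and day 5, and COV362 and MDAMB436 at day 5 alone. Each of the 12 groups held 2 libraries of stranded, poly(A)-selected RNA, named A and B, and each drug group had vehicle libraries of its own line and day. Whether the 2 libraries of a group were grown apart is not given in the labels, and the p-values reflect only how far the libraries differ, which could be technical spread. In bulk RNA, fewer cells of a kind and less RNA per cell cannot be told apart.

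Values were deposited as RPKM, reads per kilobase of gene scaled to a total per library, and whole reads could be recovered from them. That deposited total was 0.937 to 1.06 times the library's recovered reads, so RPKM and shares of recovered reads are scaled differently. The libraries held 23.77 to 44.96 M recovered reads (median 27.8 M, with M for mega). Between A and B of a group, the median gene varied 1.86 to 5.09 times as much as counting error alone. In OVCAR8 under EPZ015666 at day 5, library B had 4.54% of its reads in 4 genes of a ribosomal RNA locus, against a median of 0.289% over the 24 libraries. Vimentin (VIM) stood at 44.1 to 133 RPKM under DMSO at day 5 in each line. Of the markers used for origin, the ovarian genes PAX8 (0.0699 RPKM), WT1 (0.0387 RPKM) and SOX17 (0.00555 RPKM) were near 0 in OVCAR8. MUC16 and EMX2 were at 0 RPKM there, while MSLN stood at 47.3 RPKM. In COV362 SOX17 stood at 58.9 RPKM, MSLN at 22.2 RPKM and EMX2 at 17.6 RPKM. In COV362 the ovarian genes PAX8 (0.349 RPKM), WT1 (0.208 RPKM) and MUC16 (0.595 RPKM) were low. The breast gene GATA3 stood at 4.21 RPKM in BT549 and at 0.0589 RPKM in MDAMB436. In BT549 the breast genes ERBB2 (3.86 RPKM) and TRPS1 (0.866 RPKM) were present, and FOXA1 (0.00671 RPKM) and PGR (0 RPKM) were not. The ovarian gene MSLN stood at 3.08 RPKM there. In MDAMB436 the breast genes ERBB2 (1.74 RPKM) and FOXA1 (1.67 RPKM) lay near SOX17 (2.10 RPKM) and EMX2 (1.96 RPKM), counted as ovarian genes. TRPS1 (0.146 RPKM) and PGR (0.000673 RPKM) were low there. In the ovarian lines ERBB2 stood at 3.13 RPKM in OVCAR8 and 1.49 RPKM in COV362, and FOXA1 at 0.654 and 2.52 RPKM. ERBB2 and FOXA1 therefore do not set the breast lines apart. GATA3, TRPS1 and PGR were at most 0.321 RPKM in the ovarian lines. The endothelial marker PECAM1 was at most 0.0485 RPKM in any line.

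The ends of the mitochondrial genes, which need not be the ends of the messages, are shown because the libraries were made from polyadenylated RNA. Also, 6 of the 13 reading frames are annotated without a whole stop codon, which the poly(A) tail completes. Each line gives the last 30 bases of the gene in the reference, 5′ to 3′ on the coding strand, with the stop codon or its part in capitals.
MT-ND1: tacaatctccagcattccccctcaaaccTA
MT-ND2: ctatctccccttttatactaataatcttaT
MT-CO3: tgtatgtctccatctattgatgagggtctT
MT-ND3: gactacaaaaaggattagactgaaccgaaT
MT-ND4: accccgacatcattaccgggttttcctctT
MT-CYB: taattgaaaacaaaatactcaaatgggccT
MT-CO1: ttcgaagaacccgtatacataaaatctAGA
MT-ND6: attgtaattgagattgctcgggggaatAGG
The first 6 are annotated without a whole stop codon. The last base of MT-ATP6, at chrM:9207, is also the first base of MT-CO3, so the MT-ATP6 message may lack the last A of its TAA. MT-CO1 and MT-ND6 are shown for their AGA and AGG ends, which differ from the TAA or TAG that ends the reading frames of MT-CO2, MT-ATP8, MT-ATP6, MT-ND4L and MT-ND5. MT-ND2 lies at chrM:4470-5511 of GRCh38 and its last bases at chrM:5482-5511. MT-ND6 is the light-strand gene, at chrM:14149-14673, and its last bases at chrM:14149-14178 border the end of MT-ND5 at chrM:14119-14148 on the other strand.

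Levels between genes were compared as reads per kilobase of the principal transcript, scaled to the deposited total of the library, averaged over the 24 libraries. The longest was taken where principal transcripts ranked equal. A long transcript lowers the level, as for ATP5F1A (81.6 over 5818 bases) and NDUFS1 (10.1 over 11819 bases), so ranks depend on this choice. On the scale of reads per kilobase of transcript, the mitochondrial messages stood higher, with a median of 1124 and a range of 236 (MT-ATP8) to 2605 (MT-CO1). The median of the 67 nuclear members was 74.8. ATP5F1B, the catalytic beta subunit of the ATP synthase, was the highest nuclear member at 580, above the mitochondrial MT-ATP8, MT-ND5 (415) and MT-ND6 (427). The lowest were NDUFC2 (0.204) and the tissue-specific isoform COX6A2 (0.272). In complex II, SDHA stood at 135, SDHB at 113 and SDHC at 9.14, the last over a principal transcript of 13566 bases. The span of NDUFC2 lies under a gene of the same strand for 97% of its length, and whether reads shared between the 2 genes were left out of its value was not tested. The same holds for MT-ATP8, which shares 22.2% of its bases with MT-ATP6.

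The 4 lines differed in these genes without the drug. In the DMSO libraries of day 5, all 70 members tested differed between lines (limma, F test), against 98.7% of all genes tested. MT-ND2, a membrane subunit of complex I, stood at 1488 and 1477 RPKM in MDAMB436, at 505 and 541 RPKM in BT549, at 457 and 414 RPKM in COV362 and at 274 and 305 RPKM in OVCAR8. No neighbours in that order overlapped. SDHA, the flavoprotein of complex II, had another order, with 16.4 and 16.2 RPKM in MDAMB436, 10.1 and 9.70 RPKM in OVCAR8, 7.998 and 7.94 RPKM in BT549 and 4.58 and 4.63 RPKM in COV362.

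At day 5 the messages of the 2 genomes moved in opposite directions on balance. The effect common to the 4 lines is the mean of their day 5 differences on the log2(RPKM + 1) scale, EPZ015666 minus DMSO, with a gene called at an adjusted p of 0.05 (limma, Benjamini-Hochberg over all genes tested). Of the 13 mitochondrial messages 12 rose, by 0.11 to 0.66, and the median over all 13 was 0.29. Of the 57 nuclear members tested, 34 fell, 9 rose and 14 were not called, with a median of -0.08. The nuclear side was uneven between lines, with day 5 medians of -0.24 in OVCAR8, -0.11 in BT549, -0.05 in MDAMB436 and -0.02 in COV362. In COV362, 28 nuclear members had positive and 30 negative differences. The log2(RPKM + 1) scale understates the change of genes with low values, which here are nuclear. The sizes of the 2 medians are therefore not directly comparable. Among all genes tested, 74.7% were called, 36.3% higher and 38.4% lower, with a median of -0.002. The other 10 nuclear members had too low a mean RPKM in at least 1 line for this test.

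**Figure D1:**
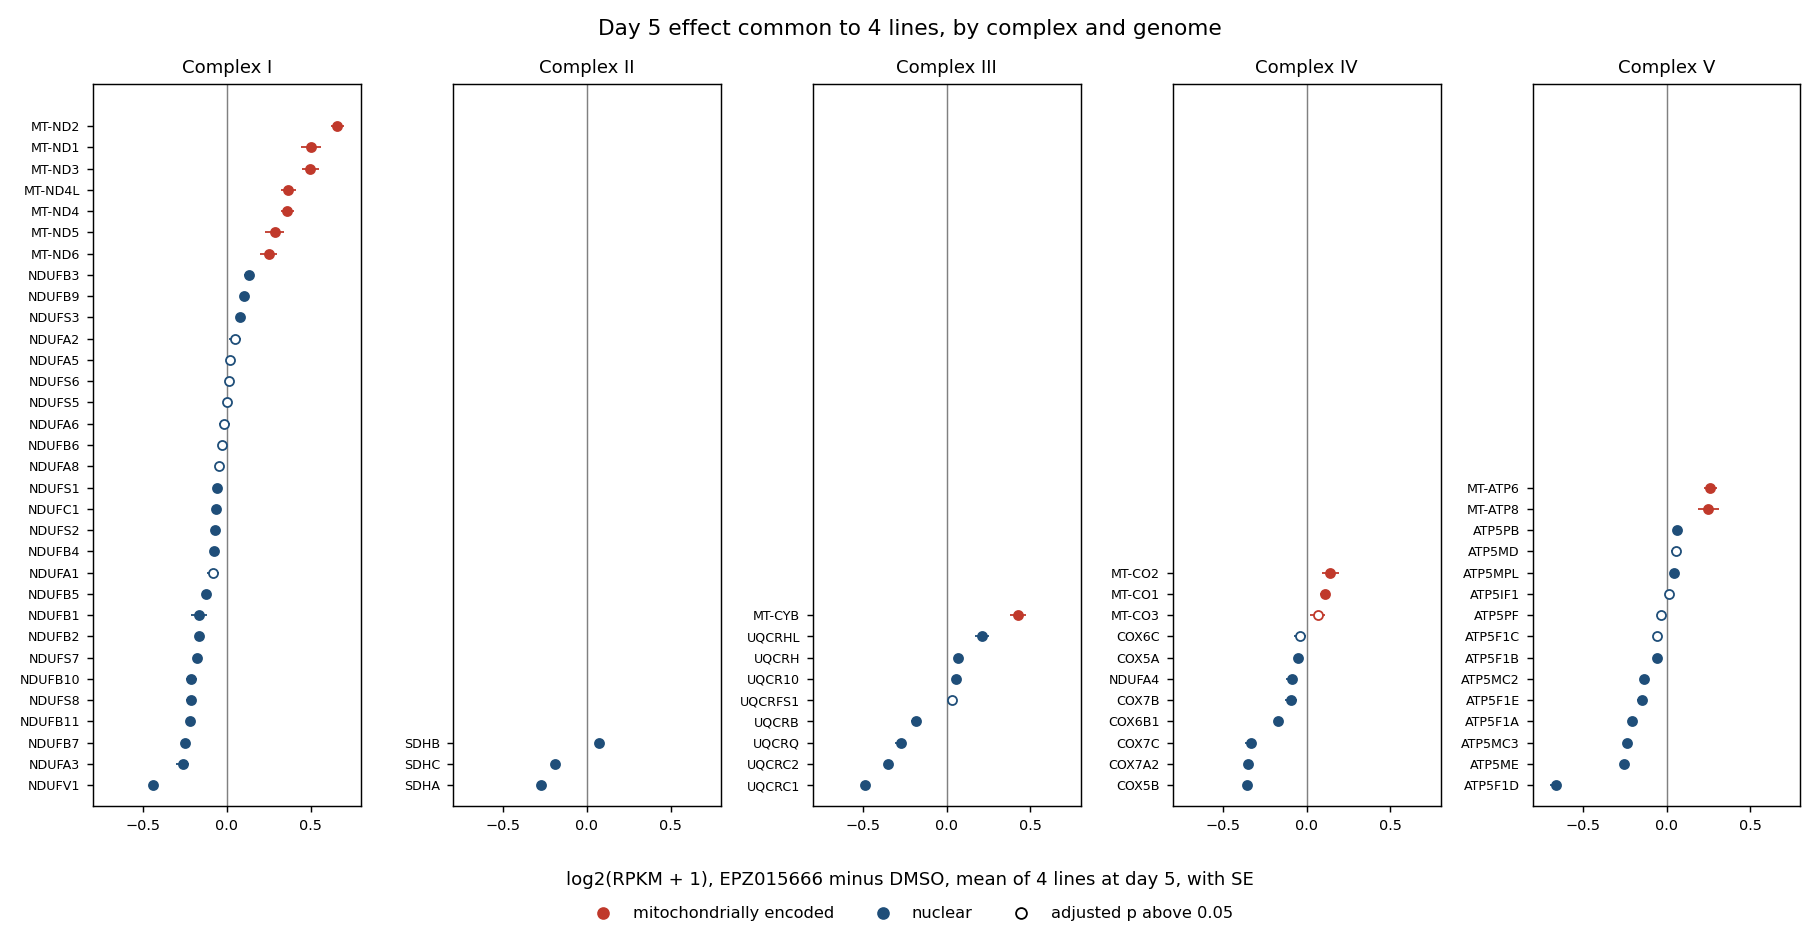
Common day 5 effect of EPZ015666 on each tested member, as the difference in log2(RPKM + 1) from DMSO averaged over 4 lines (horizontal axis), with its standard error from limma. Filled points passed an adjusted p of 0.05; the 13 mitochondrially encoded members lie at 0.07 to 0.66, and the lowest nuclear member, ATP5F1D, lies at -0.66.

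Within the common effect, nuclear and mitochondrial members were counted by complex. In complex I, 14 of 25 nuclear members fell and 3 rose (median -0.07), while all 7 mitochondrial ones rose (median 0.37). In complex II, which has no mitochondrial subunit, SDHA (-0.28) and the membrane anchor SDHC (-0.19) fell and the iron-sulfur subunit SDHB (0.08) rose. In complex III, 4 of 8 nuclear members fell and 3 rose, beside a rise of cytochrome b, MT-CYB, by 0.43. In complex IV, 7 of 8 nuclear members fell and COX6C was not called (-0.04), beside MT-CO2 (0.14) and MT-CO1 (0.11), which rose. In complex V, 7 of 13 nuclear members fell and 2 rose, beside MT-ATP6 (0.26) and MT-ATP8 (0.25), which rose.

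Counted as reads, the mitochondrial share of the library was larger under the drug in every comparison. At day 5 it was 1.37% and 1.28% under EPZ015666 against 1.08% and 1.16% under DMSO in BT549, and 0.883% and 0.982% against 0.724% and 0.804% in OVCAR8. In COV362 it was 1.40% and 1.47% under EPZ015666 against 1.19% and 1.09% under DMSO, and in MDAMB436 2.61% and 2.58% against 2.12% and 2.13%. The groups did not overlap in any line at day 5, nor at day 3. At day 3 it was 1.25% and 1.24% under EPZ015666 against 1.11% and 1.22% under DMSO in BT549, and 1.20% and 1.01% against 0.919% and 0.913% in OVCAR8. With 2 libraries against 2, no exact permutation test within a line can go below p = 0.333 (two-sided), so none is given. The share of the 67 nuclear members at day 5 was lower under the drug in OVCAR8 (0.812% and 0.791%, against 0.970% and 0.930% under DMSO), in COV362 (0.811% and 0.822%, against 0.851% and 0.841%) and in MDAMB436 (0.947% and 0.942%, against 1.03% and 1.01%). In BT549 it was 0.768% and 0.771% under EPZ015666, against 0.808% and 0.775% under DMSO.

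**Figure D2:**
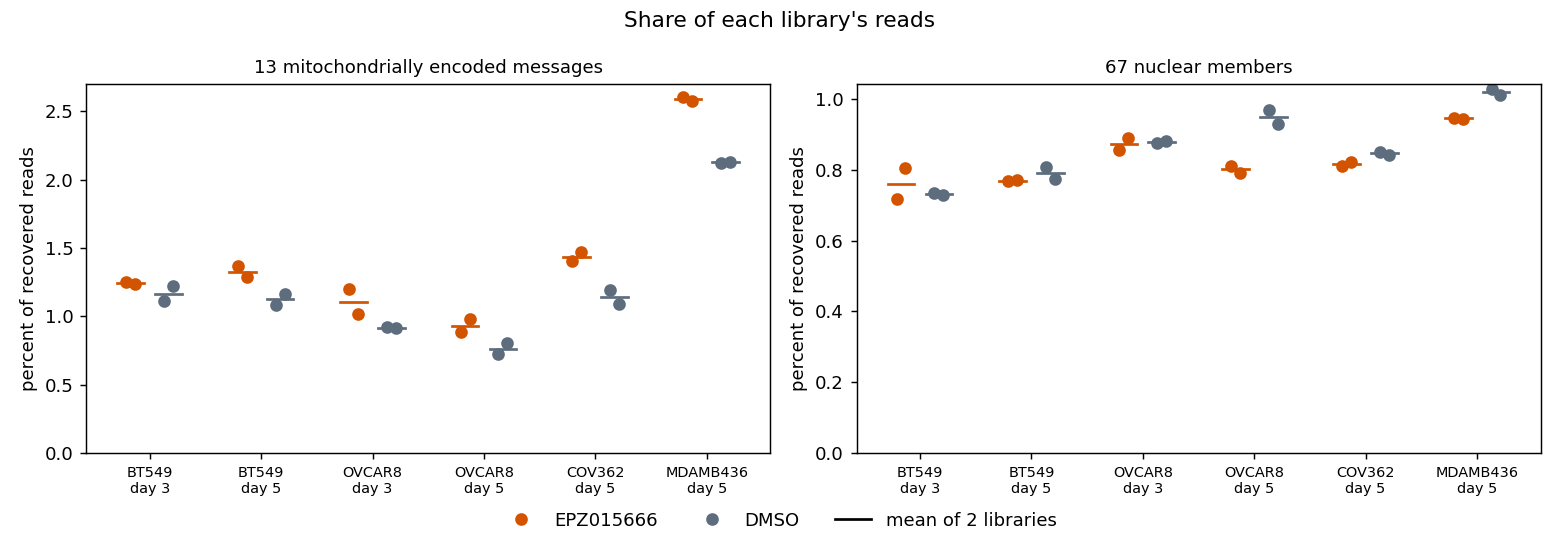
Percent of each library's recovered reads (vertical axes, from 0) in the 13 mitochondrially encoded messages (left) and the 67 nuclear members (right), with a point per library, a bar for the mean of 2 libraries, and EPZ015666 left of DMSO in each line and day. The mitochondrial share was highest in MDAMB436 under EPZ015666, at 2.61% and 2.58%.

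MT-ND2 had the largest common rise of all members, 0.66 ± 0.04 (SE, adjusted p = 5.16e-08 by limma), and it rose in each of the 6 drug comparisons. At day 5 its level was 698 and 655 RPKM under EPZ015666 in BT549, against 505 and 541 RPKM under DMSO. In OVCAR8 it was 473 and 549 RPKM under EPZ015666, against 274 and 305 RPKM under DMSO. In every line the groups stood apart. COV362 had 729 and 792 RPKM under EPZ015666 against 457 and 414 RPKM under DMSO, and MDAMB436 had 2290.1 and 2365 RPKM against 1488 and 1477 RPKM. The rise was 0.37 in BT549, 0.82 in OVCAR8, 0.80 in COV362 and 0.65 in MDAMB436, and it differed between the lines (limma F test, adjusted p = 0.0118). At day 3 it was 0.25 in BT549, where leaving out a library ended the call in 6 of 8 cases, and 0.59 in OVCAR8.

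The messages nearest to MT-ND2 in the size of their common rise were those of MT-ND1 (0.50 ± 0.06), MT-ND3 (0.50 ± 0.05) and MT-CYB (0.43 ± 0.05), each with its SE. MT-ND1 and MT-ND3, also membrane subunits of complex I, rose in all 4 lines at day 5, as did MT-ND2, against 2.94% of all genes tested in the 4 lines. MT-CYB rose in OVCAR8 (0.62), COV362 (0.52) and MDAMB436 (0.33), and in BT549 its difference of 0.23 did not pass the test (adjusted p = 0.0815). None of these 3 differed between lines by the limma F test (adjusted p of 0.85, 0.19 and 0.0765), which does not show that the effects were alike. Leaving out a library ended the OVCAR8 day 5 calls on MT-ND1 and MT-ND3 in 4 and 3 of 8 cases, and the BT549 ones in 2 and 4 of 8 cases. The BT549 call on MT-ND3 (0.31, adjusted p = 0.0385 by limma) was lost without any of the 4 day 5 libraries, and that on MT-ND1 without EPZ015666 A or DMSO A. MT-ND4L and MT-ND4, whose genes overlap by a few bases, rose by 0.37 and 0.36.

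The cytochrome c oxidase messages had the smallest common effects of the 13. MT-CO1, the catalytic subunit of complex IV, was the highest of all members and rose by 0.11 ± 0.03 (adjusted p = 0.00856 by limma). It passed the test in no line alone: at day 5 in COV362 it stood at 2406 and 2491 RPKM under EPZ015666, against 2287 and 2156 RPKM under DMSO, a difference of 0.14 with an adjusted p of 0.0598. At an unadjusted p under 0.05, limma found it in COV362 and MDAMB436. MT-CO2 rose by 0.14 ± 0.05, a call that ended in 6 of the 16 fits that left out a library. The common effect on MT-CO3 was 0.07 ± 0.05 (adjusted p = 0.207).

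MT-CO3, MT-ATP6, MT-ND5 and MT-ND6 separated the lines. MT-CO3, the third subunit of complex IV, stood at 655 and 742 RPKM under EPZ015666 at day 5 in OVCAR8, against 452 and 517 RPKM under DMSO, and rose by 0.53 (adjusted p = 0.00516 by limma). In COV362 it stood at 1260.2 and 1327 RPKM under EPZ015666, against 1670 and 1381 RPKM under DMSO, a difference of -0.23 that did not pass the test (adjusted p = 0.101), although the groups did not overlap. MT-ATP6, a proton-channel subunit of complex V, rose by 0.57 in OVCAR8 and by 0.28 in MDAMB436, while its differences of 0.06 in BT549 and 0.15 in COV362 did not pass. Both MT-CO3 and MT-ATP6 differed between the lines by the F test (adjusted p of 0.00107 and 0.00685).

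MT-ND6 stood at 486 and 473 RPKM under EPZ015666 at day 5 in BT549, against 323 and 344 RPKM under DMSO, and rose by 0.52 (adjusted p = 0.000641 by limma). In COV362 it stood at 688 and 736 RPKM under EPZ015666, against 440.2 and 446 RPKM under DMSO, and rose by 0.68 (adjusted p = 0.000458). OVCAR8 had 190 and 246 RPKM under EPZ015666 against 230.02 and 262 RPKM under DMSO, and MDAMB436 had 705 and 715 RPKM against 699 and 742 RPKM. In these 2 lines the groups overlapped and the differences of -0.18 and -0.02 did not pass. MT-ND5 went the same way, with rises of 0.48 in BT549 and 0.66 in COV362 and differences of -0.03 in OVCAR8 and 0.04 in MDAMB436 that did not pass. The F test between lines gave an adjusted p of 0.000452 for MT-ND6 and 0.00514 for MT-ND5. MT-ND6 reads were 0.892 to 1.19 times those of MT-ND5 per base in all libraries (median 1.02). A row was present for 1.49% of protein-coding genes that lie almost wholly under genes of the opposite strand, for 4.52% of those under genes of the same strand and for 68.3% of those with no such neighbour, so strand does not seem to have been used in counting. Reads of MT-ND6 and of RNA antisense to it therefore cannot be told apart.

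**Figure D3:**
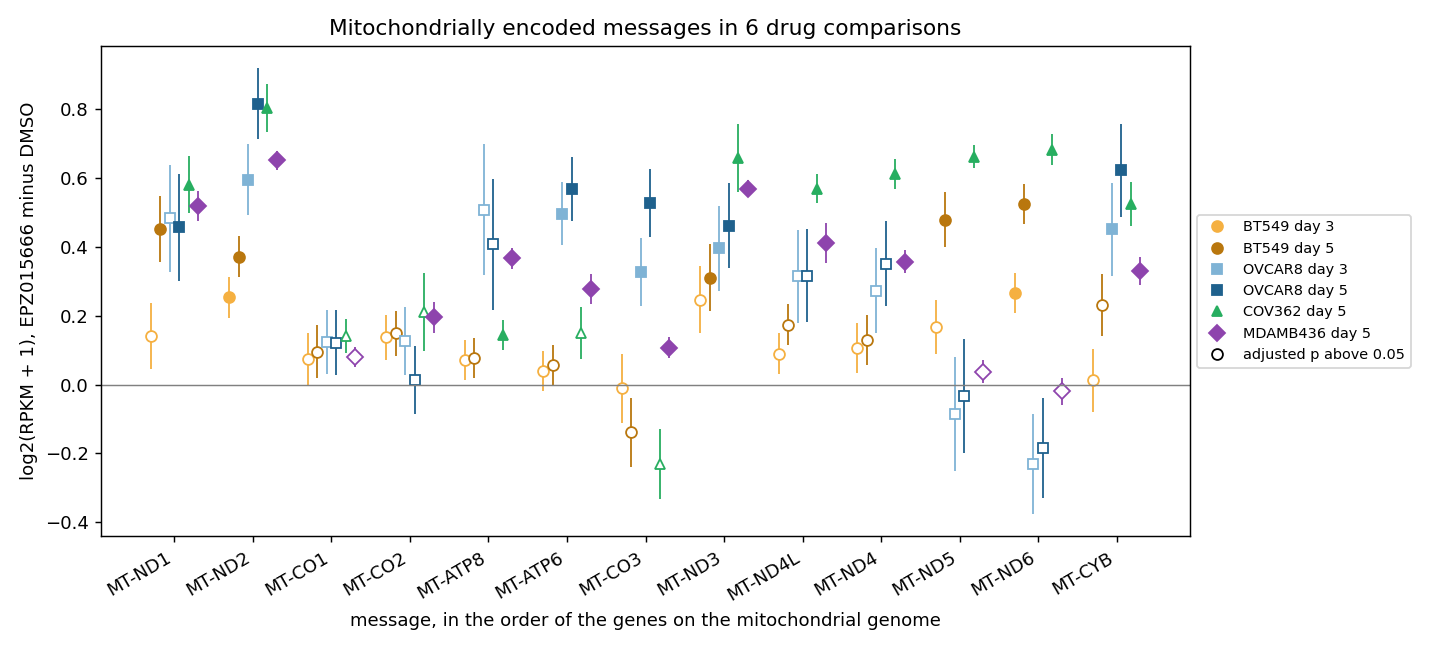
Difference in log2(RPKM + 1) between EPZ015666 and DMSO (vertical axis, with the standard error from limma) for the 13 mitochondrially encoded messages, in 6 drug comparisons marked by line and day. Filled points passed an adjusted p of 0.05; MT-ND2 is filled in all 6, and MT-ND5 and MT-ND6 lie at 0.48 to 0.68 in BT549 and COV362 at day 5.

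Of the 6 messages annotated without a whole stop codon, whose gene ends are printed above, 5 had a common effect of 0.36 to 0.66. MT-CO3 had 0.07, and the median over the 6 was 0.46. The 7 annotated with a whole stop codon ranged from 0.11 to 0.37, with a median of 0.25. MT-ATP6 (0.26), whose last base is shared with MT-CO3, was counted among these 7. This grouping was made after the values were seen and has no test. The mitochondrial ribosomal RNAs are no members, and their level in poly(A) libraries need not follow their abundance. Their common effects were 0.07 (MT-RNR1) and 0.05 (MT-RNR2), neither called, and MT-RNR2 rose in COV362 (0.47) and MDAMB436 (0.14). Reads of near-identical nuclear copies of mitochondrial DNA could add to the values of MT-ND1, MT-ND2, MT-CO1, MT-CO2, MT-ATP8, MT-ATP6 and MT-CO3.

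Among nuclear members, ATP5F1D and UQCRC1 fell in each of the 6 drug comparisons. ATP5F1D, the delta subunit of the ATP synthase's rotating central stalk (chromosome 19 from 1241746 to 1244826), had 14.7 and 15.6 RPKM under EPZ015666 at day 5 in BT549, against 29.03 and 31.8 RPKM under DMSO. OVCAR8 had 18.04 and 18.5 RPKM under EPZ015666 against 32.7 and 33.9 RPKM under DMSO, and MDAMB436 had 19.8 and 21.1 RPKM against 35.8 and 30.7 RPKM. In COV362 the gap was narrow, at 18.3 and 19.2 RPKM under EPZ015666 against 21.6 and 21.2 RPKM under DMSO. The differences were -0.96 in BT549, -0.83 in OVCAR8, -0.67 in MDAMB436 and -0.18 in COV362, and they differed between lines (F test, adjusted p = 0.000112). The common effect was -0.66 ± 0.03 (adjusted p = 1.15e-08 by limma). At day 3 it had already fallen by 0.77 in BT549 and by 0.56 in OVCAR8.

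UQCRC1, a core protein of complex III (chromosome 3 from 48599002 to 48610976), fell in every line. At day 5 it had 16.7 and 16.8 RPKM under EPZ015666 in BT549, against 24.3 and 24.2 RPKM under DMSO, and 29.3 and 27.8 RPKM in OVCAR8, against 39.4 and 40.9 RPKM. COV362 had 15.5 and 16.1 RPKM under EPZ015666 against 22.1 and 21.9 RPKM under DMSO, and MDAMB436 had 12.6 and 12.5 RPKM against 18.3 and 17.9 RPKM. The differences ran from -0.51 to -0.46, the common effect was -0.49 ± 0.02 (adjusted p = 4.47e-10 by limma), and the F test between lines did not pass (adjusted p = 0.652). The other core protein, UQCRC2, fell in each line at day 5, by 0.20 in BT549, 0.46 in OVCAR8, 0.27 in COV362 and 0.45 in MDAMB436.

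NDUFV1 and COX5B were the next lowest in the common effect. NDUFV1, the complex I subunit that takes electrons from NADH, had 21.9 and 22.6 RPKM under EPZ015666 at day 5 in OVCAR8, against 34.9 and 35.7 RPKM under DMSO. It fell by 0.64 in OVCAR8, 0.52 in MDAMB436, 0.41 in COV362 and 0.19 in BT549, with no overlap between groups. COX5B, a zinc-binding subunit of complex IV, had 88.2 and 92.9 RPKM under EPZ015666 at day 5 in OVCAR8, against 123 and 114 RPKM under DMSO. It fell in all 4 lines at day 5, by 0.31 to 0.39, and did not pass at day 3 in BT549 (-0.08) or OVCAR8 (-0.06). In all, 10 of 57 nuclear members fell in each of the 4 lines at day 5, against 7.33% of all genes tested in the 4 lines: ATP5F1D, UQCRC1, UQCRC2, NDUFV1, COX5B, SDHA, SDHC, UQCRQ, NDUFB2 and NDUFB7. No nuclear member rose in more than 2 lines at day 5.

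**Figure D4:**
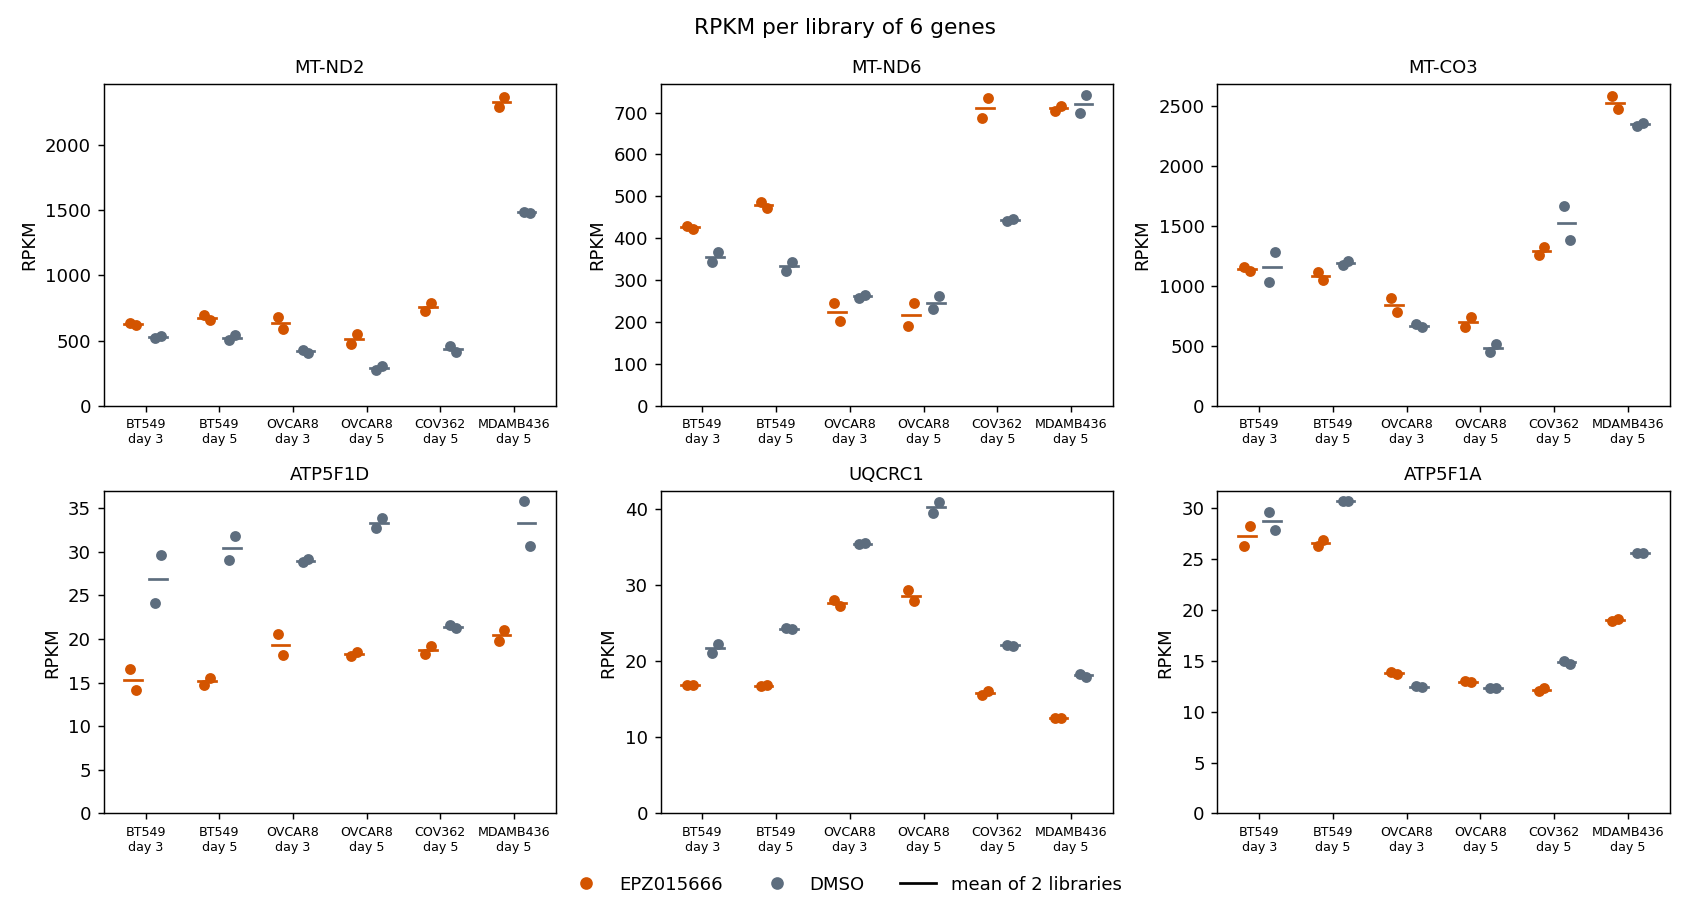
RPKM per library (vertical axes, from 0) of 3 mitochondrial and 3 nuclear genes in 4 lines, with EPZ015666 left of DMSO and a bar for the mean of 2 libraries. ATP5F1D and UQCRC1 lie lower under EPZ015666 in every line and day, MT-ND2 lies higher, and MT-ND6, MT-CO3 and ATP5F1A differ by line.

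The rises among nuclear members were small on this scale, which understates the change of genes with low values. UQCRHL rose by 0.21 in the common effect, NDUFB3 and NDUFB9, accessory subunits in the membrane arm of complex I, by 0.13 and 0.10, and NDUFS3, a core subunit of the matrix arm, by 0.08. UQCRHL had 16.9 and 18.1 RPKM under EPZ015666 in COV362, against 14.1 and 13.8 RPKM under DMSO; its reads may in part come from UQCRH, of which it is a copy, and UQCRH itself rose by 0.07. The span of NDUFB9 lies under a gene of the opposite strand for 72.7% of its length.

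For 50 of the 67 nuclear members a promoter, 250 bases before to 50 after the gene's start, was matched in RefSeq (GRCh38.p14). A motif of nuclear respiratory factor 1 (NRF1), a factor known to drive many respiratory genes, was searched on both strands. It was spelled as GCGC, any base and TGCGC, which in reverse reads GCGCA, any base and GCGC. The motif was found in 10 of the 50 (20%), against 13.1% of 4683 promoters of genes tested in the common effect and 5.78% of all 35116 promoters. Among members, 5 of the 26 that fell in the common effect (19.2%), 1 of the 6 that rose and 3 of the 11 not called held it. The UQCRC1 promoter is shown because that gene fell in every comparison, at chr3:48609597-48609896 on the minus strand, with the match in capitals 47 bases before the RefSeq start. That start lies inside the GENCODE span given above, which begins farther upstream.
UQCRC1: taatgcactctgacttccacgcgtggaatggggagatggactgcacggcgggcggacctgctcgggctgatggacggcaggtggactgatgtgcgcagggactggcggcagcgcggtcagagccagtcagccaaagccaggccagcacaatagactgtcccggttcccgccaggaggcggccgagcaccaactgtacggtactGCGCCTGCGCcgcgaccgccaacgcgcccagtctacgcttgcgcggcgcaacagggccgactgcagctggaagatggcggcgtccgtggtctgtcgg
The match is a description of letters and not of binding.

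In BT549 at day 5, 5 of 13 mitochondrial messages rose (MT-ND1, MT-ND2, MT-ND3, MT-ND5 and MT-ND6), and of 57 nuclear members 16 fell and 1, NDUFB9, rose. Of all genes tested in this comparison 40.4% were called, 17.7% higher and 22.7% lower. The mitochondrial median was 0.17 and the nuclear one -0.11, against -0.007 for all genes. With values rescaled to reads outside the mitochondrial genome in place of the deposited total, the calls were 8 mitochondrial and 3 nuclear rises and 8 nuclear falls. That total averaged 0.937 times the recovered reads under DMSO and 0.990 times under EPZ015666. How much of the change in calls came from mitochondrial reads was not tested. The NDUFB9 call (adjusted p = 0.0336 by limma) was lost without any of the 4 day 5 libraries. Leaving out any of them left 8 to 12 members called, with 8 without DMSO A or without EPZ015666 A, 10 without EPZ015666 B and 12 without DMSO B.

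In BT549 at day 3, 10 of 70 members were called, 8 higher and 2 lower, against 20% of all genes tested (9.22% higher and 10.8% lower), and the nuclear median was 0.07. The 6 nuclear rises included UQCR10, a small subunit of complex III, at 25.6 and 30.02 RPKM under EPZ015666 against 21.05 and 22.6 RPKM under DMSO, and SDHB (0.22). NDUFA4, counted here with complex IV, had 5.26 and 5.58 RPKM under EPZ015666 at day 3, against 4.505 and 4.64 RPKM under DMSO, and rose by 0.20. At day 5 it had 4.57 and 4.81 RPKM under EPZ015666, against 5.66 and 5.72 RPKM under DMSO, and fell by 0.23. The drug effect on NDUFA4 was 0.44 lower at day 5 than at day 3 (adjusted p = 0.0216 by limma), the only member that limma called between the days in BT549, against 5.97% of all genes, 1.52% higher and 4.45% lower. None of the 13 mitochondrial messages differed between the days there by limma, with 2 at an unadjusted p under 0.05 and 2 called by limma-voom. The NDUFA4 call ended in 6 of 15 alternatives. The day 3 count was 6 without BT549 DMSO day 5 A, DMSO day 5 B or DMSO day 3 B, 5 without EPZ015666 day 5 A, EPZ015666 day 5 B or DMSO day 3 A, and 3 without EPZ015666 day 3 B.

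OVCAR8 at day 5 had the most nuclear members called lower of the 6 comparisons. Of 58 tested, 41 fell, and NDUFA5, an accessory subunit of complex I, rose by 0.17. Of all genes tested 56.2% were called, 35.1% of them lower and 21.1% higher as shares of all tested, and the nuclear median was -0.24 against -0.04 for all genes. The falls took in 11 of 13 nuclear members of complex V, 15 of 25 of complex I, 6 of 9 of complex IV, 6 of 8 of complex III and all 3 of complex II. NDUFS8, an iron-sulfur subunit of complex I, had 17.7 and 18.7 RPKM under EPZ015666, against 28.3 and 27.9 RPKM under DMSO, and fell by 0.60 (adjusted p = 0.00012 by limma). The groups did not overlap. ATP5F1A, the alpha subunit of the ATP synthase, had 12.99 and 12.9 RPKM under EPZ015666 against 12.3 and 12.4 RPKM under DMSO, a difference of 0.06 that did not pass (adjusted p = 0.0674). Without library B of EPZ015666 at day 5, the library with many ribosomal reads, 41 members were called, against 48 with all libraries.

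At day 3 in OVCAR8, 5 mitochondrial and 6 nuclear members rose and 11 nuclear members fell, against 37% of all genes called, 15.6% higher and 21.4% lower, with a nuclear median of -0.01. With values rescaled to reads outside the mitochondrial genome in place of the deposited total, the split was 14 higher and 8 lower and the nuclear median 0.02. Leaving out DMSO day 3 A left 12 called, and leaving out DMSO day 3 B left 10. The drug effect was lower at day 5 than at day 3 for 10 nuclear members and higher for none, against 5.15% and 2.31% of all genes, or 7.46% in both directions. UQCR10 had 20.6 and 22.7 RPKM under EPZ015666 at day 5, against 26.5 and 25.4 RPKM under DMSO, and at day 3 25.2 and 25.4 RPKM, against 22.4 and 21.8 RPKM. It fell at day 5 by 0.25 and rose at day 3 by 0.19, a difference of -0.44 (adjusted p = 0.0293 by limma). ATP5IF1, the inhibitor of the ATP synthase, went the same way (-0.37, adjusted p = 0.0268). None of the 13 mitochondrial messages differed between days by limma, nor by limma-voom, and 0 had an unadjusted p under 0.05. Leaving out any of the 8 OVCAR8 libraries left 0 of the 10 calls between days, so they rest on all of them.

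**Figure D5:**
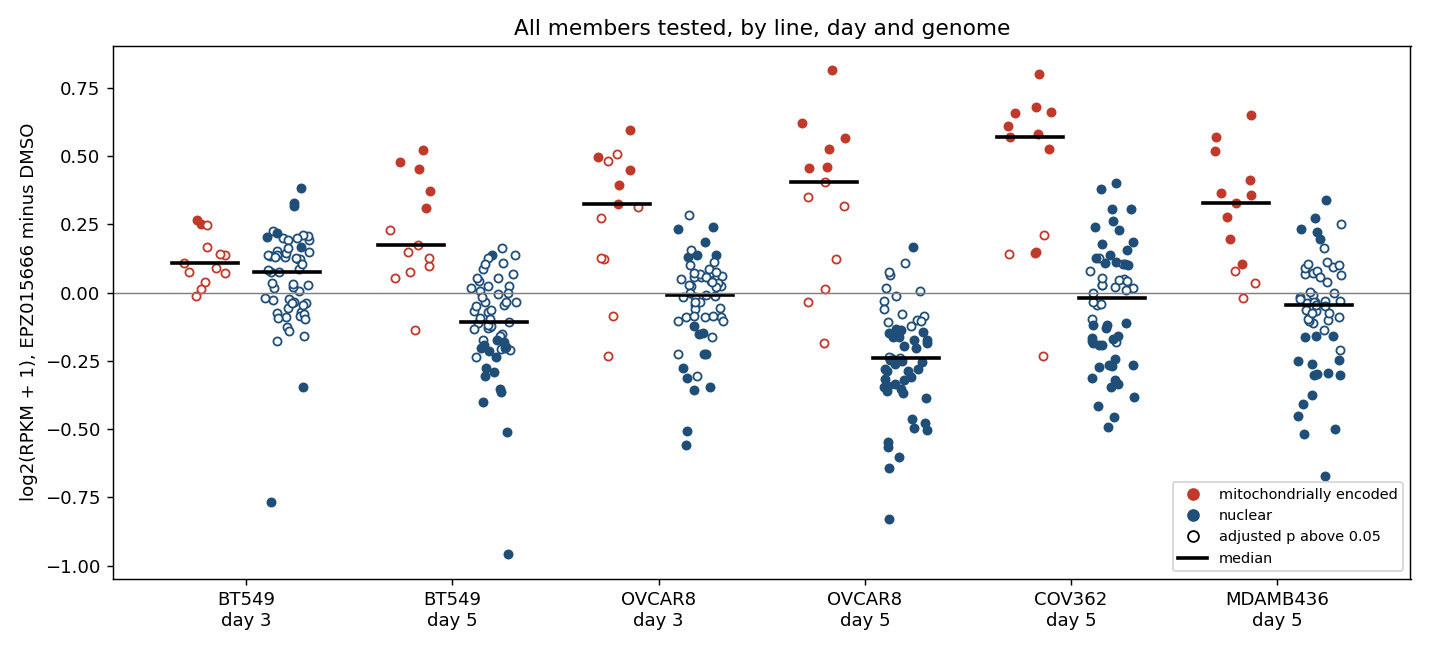
Difference in log2(RPKM + 1) between EPZ015666 and DMSO (vertical axis) for each tested member in 6 comparisons, with mitochondrially encoded members left of nuclear ones, filled points past an adjusted p of 0.05 and a black bar at the median. The nuclear median lay at -0.24 in OVCAR8 at day 5 and at 0.07 in BT549 at day 3, and the mitochondrial median was highest in COV362, at 0.57.

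COV362 had the highest mitochondrial median, 0.57, and the most nuclear rises of the 4 lines. Of the 13 messages 9 rose, all 7 of complex I among them at 0.57 to 0.80, while MT-CO1, MT-CO2, MT-CO3 and MT-ATP6 did not pass. Of 58 nuclear members 16 rose and 24 fell, with a median of -0.02, against 70.8% of all genes called, 39.3% higher and 31.5% lower. SDHB had 5.78 and 5.50 RPKM under EPZ015666, against 3.98 and 4.21 RPKM under DMSO, and rose by 0.38 (adjusted p = 0.00136 by limma). Within complex II it parted from SDHA (-0.19) and SDHC (-0.27), which fell. NDUFB9 had 7.81 and 8.06 RPKM under EPZ015666, against 5.83 and 5.68 RPKM under DMSO, and rose by 0.40. COX7C, a small subunit of complex IV, fell the most, by 0.49.

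In MDAMB436, 10 of 13 mitochondrial messages rose, and of 58 nuclear members 16 fell and 5 rose, against 42.2% of all genes called, 23.2% lower and 19% higher. ATP5IF1 had 13.8 and 14.6 RPKM under EPZ015666, against 11.5 and 10.6 RPKM under DMSO, and rose by 0.34 (adjusted p = 0.0104 by limma). The small membrane subunit ATP5MPL also rose, by 0.23. ATP5F1A had 18.9 and 19.1 RPKM under EPZ015666 against 25.6 and 25.6 RPKM under DMSO, and fell by 0.41. Leaving out EPZ015666 A left 19 members called, and leaving out EPZ015666 B left 18, against 31 with all libraries. The call on MT-CO3 (0.11) ended in 9 of 11 alternatives.

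The day 5 effect differed between the lines for 47 of 70 members by the limma F test, 6 mitochondrial and 41 nuclear, against 79.8% of all genes tested. ATP5F1A, whose levels are plotted by library, had the smallest adjusted p (5.73e-06), with falls in MDAMB436 (-0.41), COV362 (-0.27) and BT549 (-0.20) and a difference of 0.06 in OVCAR8 that did not pass. NDUFB9 (adjusted p = 7.1e-06) and SDHB (adjusted p = 2.68e-05) rose in COV362, by 0.40 and 0.38. SDHB fell in OVCAR8 by 0.16, with 3.16 and 3.15 RPKM under EPZ015666 against 3.74 and 3.56 RPKM under DMSO, and its values of 0.10 in BT549 and -0.02 in MDAMB436 did not pass. NDUFB9 also rose in BT549 (0.14), and its values of -0.09 in OVCAR8 and -0.05 in MDAMB436 did not pass. ATP5MC2, a gene for the c subunit that forms the ATP synthase's rotor ring (adjusted p = 9.99e-05), fell in COV362 by 0.32 and in OVCAR8 by 0.24, and its values of -0.03 in BT549 and 0.07 in MDAMB436 did not pass.

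Members also differed between the days in the vehicle libraries. In OVCAR8, 21 nuclear members were higher and 1 lower at day 5 than at day 3 under DMSO, against 36.7% of all genes called, 20.7% higher and 15.9% lower. The mitochondrial messages all had negative differences there, with a median of -0.25, and MT-ND2 (-0.54), MT-CYB (-0.53) and MT-CO3 (-0.47) fell. MT-ND2 had 274 and 305 RPKM under DMSO at day 5, against 431 and 409 RPKM at day 3. Under EPZ015666 it had 473 and 549 RPKM at day 5, against 684 and 589 RPKM at day 3. The OVCAR8 count was 10 without DMSO day 5 A, 4 without DMSO day 3 A and 8 without DMSO day 3 B, against 25. With values rescaled to reads outside the mitochondrial genome in place of the deposited total, the split was 12 higher and 5 lower, against 21 and 4. In BT549, 7 nuclear members were higher at day 5 than at day 3 under DMSO, against 16.7% of all genes called, 10.7% higher and 6.02% lower, and the mitochondrial median was 0.001. That count was 0 without DMSO day 5 A or B, 3 without DMSO day 3 A, 4 without EPZ015666 day 5 A or B and 13 without EPZ015666 day 3 A or B. None of its 13 mitochondrial messages was called by limma, 1 had an unadjusted p under 0.05, and limma 25 nuclear members at an unadjusted p under 0.05 with all libraries and limma-voom called 19 of them higher.

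Other genes of the pathway were taken from lists, and their counts in the common effect stand against 36.3% of all genes called higher and 38.4% called lower. Of 4 subunits and carriers outside the symbol rule that were tested in the common effect, CYCS, for cytochrome c, rose by 0.15 and NDUFAB1 by 0.04, while CYC1 (-0.11) and COX4I1 (-0.10) fell. Among 8 complex I assembly factors 4 rose and 3 fell, with NDUFAF3 at -0.76. Among 14 assembly factors of the other complexes 5 rose and 7 fell, with COA5 at -0.51. Of 7 genes of mitochondrial transcription and DNA maintenance 5 rose, POLG, the DNA polymerase, by 0.24 and TFAM, which packs mitochondrial DNA, by 0.12, and the RNA polymerase POLRMT was not called (-0.002). Of 10 genes of mitochondrial RNA processing 4 rose, with the helicase SUPV3L1 at 0.27, and 1, FASTK, fell by 0.22. LRPPRC, which stabilises mitochondrial messages, was not called (0.03). Of 13 tricarboxylic acid cycle enzymes 8 fell and 2 rose, with IDH2 at -0.47. Of 15 genes of mitochondrial mass and import 7 rose and 4 fell, and of 7 nuclear regulators 3 rose and 1, NR2F2, fell by 0.34.

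Of the 67 nuclear members, 8 had too low an RPKM for the test in every drug comparison: NDUFA10, NDUFS4, NDUFC2, NDUFA12, NDUFA13, ATP5S, COX6A2 and COX6B2. RPKM here divides by the gene span with introns, which is 106716 to 132953 bases for NDUFA12, NDUFS4 and NDUFA10. Per kilobase of transcript NDUFA12 (74.4) and NDUFS4 (69.4) lay near the nuclear median of 74.8, and NDUFA10 lay at 21.5. The others lay at 0.204 to 1.47. Some of them and NDUFV3 reached the count filter of limma-voom on recovered reads, where the common effect was -0.48 for ATP5S and -0.19 for NDUFA10, which fell, and 0.15 for NDUFS4, which rose. NDUFV3 fell there by 0.12, and NDUFA12 (0.05) did not pass.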

How the data were processed

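RNA of 4 cell lines was poly(A)-selected and sequenced, per the labels. The authors deposited RPKM values per gene and library. Reads were counted with featureCounts on GRCh38, per the submitters' processing notes; the aligner, versions and annotation are not stated there or in the labels. RPKM times gene span (GENCODE v29, introns included) times a scaled total gave whole reads for 100% of values under 1000 reads (tolerance 0.02), in 16563 of 16591 genes. These recovered reads (23.77 to 44.96 M a library) set the depth, read shares and 1 alternative. The span as length understates genes with long introns, so levels between genes used transcript length.

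The main test was limma 3.58.1 (R 4.3.3) on log2(RPKM + 1) with a mean per group and a variance trend, fitted per line, or over the 16 day 5 libraries for effects across lines. Genes needed a mean of at least 1 RPKM in the line, or in each of the 4 lines. Adjustment was Benjamini-Hochberg over all genes tested, and the threshold 0.05. The log2(RPKM + 1) scale understates the change of low genes. The fits were tested on simulated data. Alternatives were a pseudocount of 0.1, no filter, 2 other scalings, the library letter as a block, 1 fit over all 24 libraries, limma-voom and leaving out each library.

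Members and lists were chosen with earlier results of these data known. Named were all mitochondrial members, the nuclear members with the largest rises and falls or smallest adjusted p in a comparison, those that a small count refers to and the highest and lowest by level. UQCRQ, NDUFB2, the members too low to test and the grouping by stop codon were named after values were seen. Counting errors alone are below the spread between libraries.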

Additional observations from a re-analysis of the deposited data

Results flagged for a closer look

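The day 5 effect of EPZ015666 differed between the 4 lines for 47 of the 70 members tested (limma F test, adjusted p under 0.05), and 79.8% of all genes tested did so too. The smallest adjusted p-values were those of ATP5F1A (5.73e-06), NDUFB9 (7.1e-06), SDHB (2.68e-05) and ATP5MC2 (9.99e-05).

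The drug effect differed between day 5 and day 3 for NDUFA4 in BT549, by -0.44 on the log2(RPKM + 1) scale, against 5.97% of all genes tested. The NDUFA4 call was lost with the library letter as a block. In OVCAR8 it differed for UQCR10 (-0.44), ATP5IF1 (-0.37), NDUFS8 (-0.32), NDUFA8 (-0.32), NDUFB11 (-0.28), NDUFS6 (-0.25), NDUFS5 (-0.24), NDUFC1 (-0.22), NDUFS3 (-0.22) and SDHA (-0.21). All 10 had a lower effect at day 5 than at day 3, against 5.15% of all genes lower and 2.31% higher. As stated above, these 10 calls rest on all of the OVCAR8 libraries.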

How the results depend on the processing

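Counts of members called are given for each comparison. Without a filter on low values they were 6 for BT549 day 3 (10 as reported), 2 for the OVCAR8 difference between days (10), 4 for BT549 DMSO over time (7) and 16 for OVCAR8 DMSO over time (25). Scaled to reads outside the mitochondrial genome in place of the deposited total, they were 6 for the OVCAR8 difference between days and 4 for BT549 DMSO over time. In 1 fit over all 24 libraries they were 23 for BT549 day 3, 15 for the BT549 difference between days (1), 21 for that of OVCAR8 and 31 for BT549 DMSO over time. By limma-voom they were 23 for BT549 day 3, 35 for OVCAR8 day 3 (22), 8 and 35 for the differences between days in BT549 and OVCAR8, and 20 and 43 for DMSO over time in BT549 and OVCAR8.

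Deviations of same-lettered libraries had correlations of -0.196 to -0.002 in 5 line and day pairs and of 0.214 in COV362, so the letters were not taken as pairs across the series. With the letter as a replicate block the counts were 14 for BT549 day 5 (22), 3 for BT549 day 3, 0 for both differences between days and for BT549 DMSO over time, and 12 for OVCAR8 DMSO over time.

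Leaving out 1 library gave 8 to 25 for BT549 day 5, 3 to 14 for BT549 day 3, 34 to 50 for OVCAR8 day 5 (48), 10 to 25 for OVCAR8 day 3, 37 to 45 for COV362 (49), 18 to 29 for MDAMB436 (31), 50 to 56 for the common effect (55) and 38 to 49 for the F test between lines (47). It gave 0 to 3 for the BT549 difference between days, 0 for that of OVCAR8, 0 to 13 and 4 to 23 for DMSO over time in BT549 and OVCAR8, and 69 to 70 for DMSO levels (70). The lone library of a reduced group was taken to vary as the remaining groups do.

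Of 113 calls on named members, 73 were ended by no alternative and 40 by at least 1, and no sign of a called value reversed.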
